A study of Mus musculus with 6 samples.

Results

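The clustered protocadherins are the adjoining Pcdha, Pcdhb and Pcdhg genes of mouse chromosome 18, here all genes whose RefSeq symbol starts with Pcdha, Pcdhb or Pcdhg followed by a letter or number. There were 58 such genes between positions 36930285 and 37841873 of chromosome 18 (mm10), a locus of 911.6 kb. A bait, which is a promoter fragment enriched by the capture, was counted with them where it overlapped a gene body extended by 2 kb, and 58 of the 19083 baits of the series did. Of the genes, 14 were Pcdha, with 12 alternate genes and the 2 C-type genes Pcdhac1 and Pcdhac2, 22 were Pcdhb, and 22 were Pcdhg, with 19 of the a and b types and the 3 C-type genes Pcdhgc3, Pcdhgc4 and Pcdhgc5. In all, 56 genes had a bait. Pcdha6 and Pcdha7 had 2 each, and Pcdhb9 and the pseudogene Pcdhgb8 had 0.

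Clustered protocadherins are adhesion proteins of the cell surface, best known from neurons, where each cell makes its own combination of isoforms and uses it to tell its own branches from those of other cells. Each alternate Pcdha and Pcdhg gene has its own promoter and first exon, which is spliced to constant exons shared by the family, while Pcdhb genes have a single exon. The promoters are known to be chosen through contacts with distant enhancers that depend on CTCF and cohesin. One enhancer is known to lie between the Pcdha constant exons and Pcdhb1, and another group lies downstream of the Pcdhg constant exons and is known to act on Pcdhb genes. C-type genes are regulated differently from the alternate genes of their family.

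Promoter-capture Micro-C joins DNA ends that lie close together in fixed nuclei after cutting with micrococcal nuclease, and then enriches promoter fragments. The cells were wild type E14 mouse embryonic stem cells, a line derived from a male mouse, and were taken 48 h after they received esiRNA, a mixture of short interfering RNAs cut from long double-stranded RNA. The esiRNA targeted EGFP, a gene these cells lack, in Control, Smarca4, which encodes the Brg1 ATPase of esBAF, in Brg1KD, and Ino80, the ATPase of the INO80 complex, in Ino80KD. There were 2 libraries per group. Per the labels, batch 1 held the first replicate of each group, batch 2 the second Control library, and batch 3 the second library of Brg1KD and of Ino80KD. These libraries hold no RNA, so neither the knockdowns nor the expression of these genes or of cell type markers could be checked.

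The libraries listed 12254 to 15322 intrachromosomal loops each, a loop being a bait and another end with a deposited score of 5 or more. Sequencing depth is unknown. The other ends are mostly bins of a 20 kb grid. Loops at clustered protocadherin baits made up 31.9 to 39.3% of all intrachromosomal loops listed on chromosome 18. They came to 550 listings over the 6 libraries and 304 distinct loops, and each listing was counted once, under the bait in its first position, except that totals per bait count a loop at either of its ends.

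Alternate alpha promoters looped almost entirely downstream, towards higher coordinates, and most alpha listings ended in a single short stretch. Of the 147 listings of alternate Pcdha baits, 97.3% ran downstream. Of the 185 listings of all Pcdha baits, 121, or 65.4%, ended in the 74.1 kb between the end of the Pcdha genes and Pcdhb1 (37188898 to 37262998), which holds 8.13% of the length of the locus and no member gene. The number was 21 and 22 in Control, 14 and 21 in Brg1KD, and 22 and 21 in Ino80KD. Brg1KD replicate 1 was the low library, and the groups overlapped. Within the interval the bin from 37200001 to 37220000 stood out with 60 listings, namely 10 and 10 in Control, 8 and 14 in Brg1KD, and 9 and 9 in Ino80KD. It was the most listed bin of the locus, ahead of 25 listings for the next bin of the interval. All 16 Pcdha baits reached the interval in at least 1 library, and 14 did in 4 or more. Pcdha2, Pcdha11, Pcdha12 and Pcdhac1 did so in all 6.

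Beta and gamma promoters shared none of these contacts. Of their 365 listings, 0 ended in the interval between Pcdha and Pcdhb1. Instead, 160 ended in the first 100 kb downstream of the locus, where 0 of the 185 Pcdha listings ended. The downstream contacts lay in 3 neighbouring bins, with 46 listings in the bin from 37840001 to 37860000, 55 in the next and 58 in the bin from 37880001 to 37900000. The following bin, from 37900001, had 1. These bins cover the end of the Pcdhg constant exons and much of the body of Diaph1 (37843601 to 37935622), a formin gene of the actin cytoskeleton. Between alpha and gamma, 1 Pcdha listing reached a gamma gene, the loop from Pcdha4 to the Pcdhga4 bait in Brg1KD replicate 2, and 1 gamma listing reached an alpha gene. Between alpha and beta there were more. Of 147 alternate Pcdha listings, 24, or 16.3%, ended among the beta genes, as did 1 of 38 C-type listings. Of 154 Pcdhb listings, 9 ended at the alternate alpha exons and 3 between these and the end of the Pcdha genes.

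**Figure D1:**
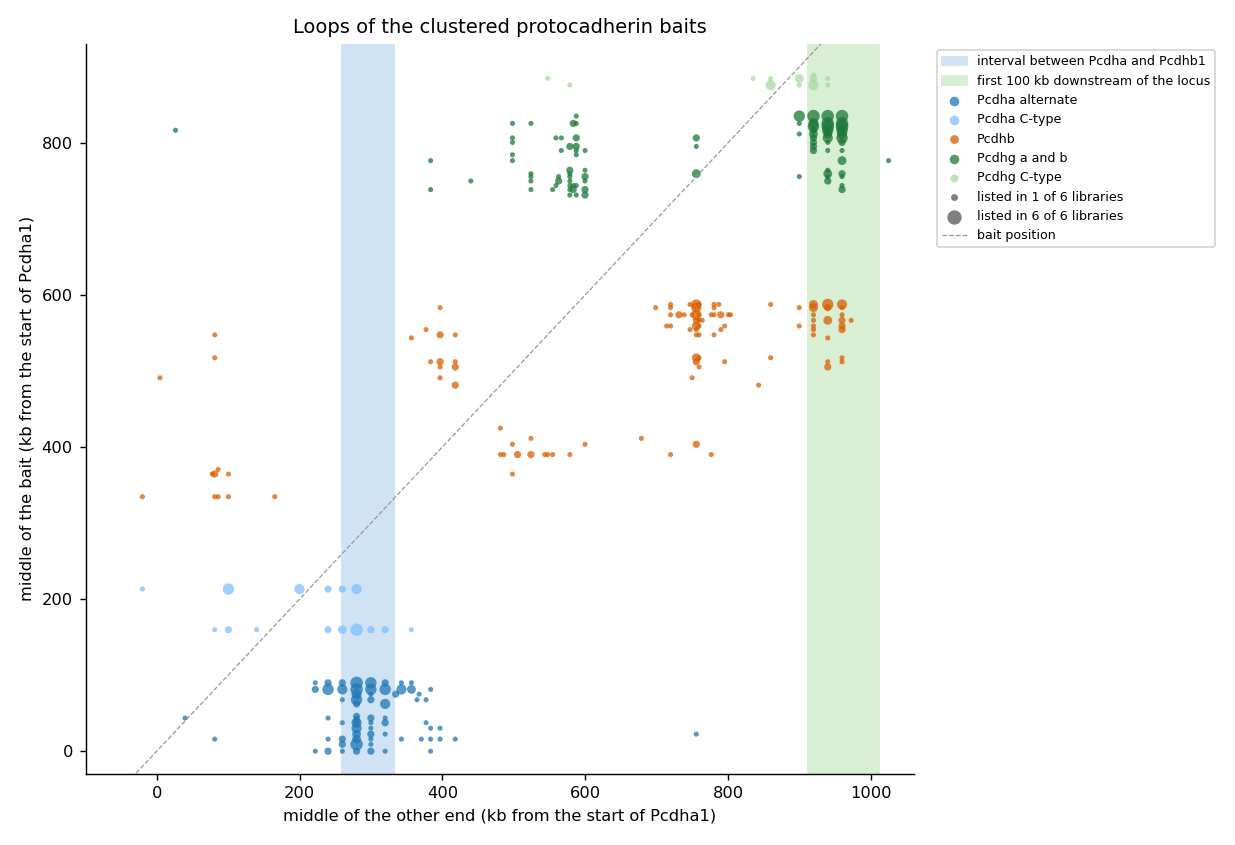
Each point is a distinct loop of a clustered protocadherin bait, with the middle of the other end on the x axis and the middle of the bait on the y axis, both in kb from the start of Pcdha1, coloured by family and sized by the number of libraries that list it. Alpha baits fill the shaded interval between Pcdha and Pcdhb1, which no beta or gamma bait reaches, and beta and gamma baits reach the shaded 100 kb downstream of the locus.

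**Figure D2:**
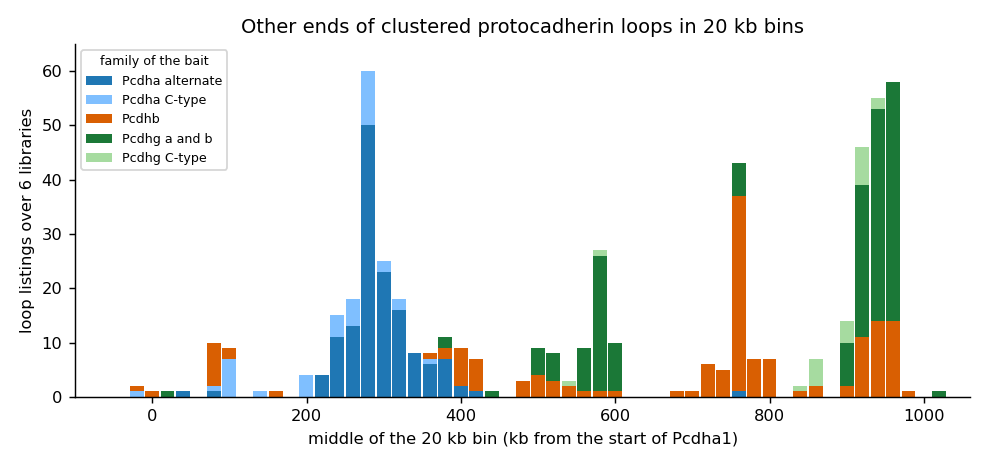
Bars give the loop listings over 6 libraries whose other end has its middle in each 20 kb bin, stacked by the family of the bait, against the distance from the start of Pcdha1. The highest bar, with 60 listings, lies between Pcdha and Pcdhb1 and holds alpha listings alone, and the next bars, at the far end, hold beta and gamma listings.

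Among the alpha genes, Pcdha11 and Pcdha12, the last alternate genes before the C-type genes, had the most loops into the interval, with 20 and 15 listings. The interval did not take most loops of every alpha bait: it took 20 of 42 at Pcdha11, 6 of 13 at Pcdha3 and 6 of 18 at Pcdhac2. Pcdha11 had 42 loops in all, the most of any member, with 5 and 7 in Control, 5 and 10 in Brg1KD, and 6 and 9 in Ino80KD. Its groups overlapped. Its bait is 3360 bases long, against 1860 for 52 of the 58 baits, and only the Pcdhga4 bait, of 3534 bases, is longer. The part of bait length in these 2 counts was not tested. Pcdha12 had 20 loops, 4 and 4 in Control, 2 and 2 in Brg1KD, and 4 and 4 in Ino80KD, so both Brg1KD libraries were below all others. Pcdha3 had 13, spread as 2 and 3 in Control, 2 and 3 in Brg1KD, and 2 and 1 in Ino80KD. The C-type Pcdhac1 had 20, with 3 and 6 in Control, 1 and 2 in Brg1KD, and 5 and 3 in Ino80KD. Pcdhac2 had 18, with 3 and 5, 2 and 4, and 2 and 2 in the same order. Of 38 C-type listings pooled over the 6 libraries, 50.0% ended in the interval. Another 42.1% ended between Pcdha12 and the end of the Pcdha genes (37022231 to 37188897), a stretch that holds the C-type and constant exons. For the alternate genes these shares were 69.4% and 10.2% of 147, a difference that was not tested. Of the 16 C-type listings in that stretch, 7 ended in the bin from 37020001 to 37040000, which lies before Pcdhac1 (start 37090136).

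The gamma promoters split by position. The run of 6 neighbouring genes Pcdhga9, Pcdhgb6, Pcdhga10, Pcdhgb7, Pcdhga11 and Pcdhga12, the last a and b genes before the C-type genes, gave 84 of the 111 downstream listings of a and b baits, or 75.7%. Each of the 6 had 10 to 18 such listings and was listed there in all 6 libraries. The other 12 a and b baits had at most 5 each and 27 together. Pcdhga1 and Pcdhga7 had 0. The step lay between Pcdhgb5 with 5 and Pcdhga9 with 11, which are neighbours along the locus. All gamma baits together had 17 and 22 downstream loops in Control, 19 and 17 in Brg1KD, and 22 and 23 in Ino80KD, and 19 of 21 gamma baits contributed. Both Ino80KD libraries were at or above the higher Control library in number.

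Pcdhga12 had 25 loops in all, 4 and 5 in Control, 4 and 3 in Brg1KD, and 4 and 5 in Ino80KD. Pcdhga11 had 23, with 6 and 4 in Control, 2 and 2 in Brg1KD, and 5 and 4 in Ino80KD, so both Brg1KD libraries were the lowest. Pcdhgb7 had 19 (3 and 2, 3 and 3, 5 and 3), Pcdhga9 had 18 (3 and 2, 6 and 3, 2 and 2) and Pcdhga10 had 15 (2 and 2, 3 and 2, 5 and 1), each in the order Control, Brg1KD and Ino80KD. In these genes each depletion overlapped or touched Control, while at Pcdhga9 both Brg1KD libraries were above both Ino80KD libraries. Pcdhgb2, outside the run, had 17 loops, with 5 and 2 in Control, 1 and 0 in Brg1KD, and 4 and 5 in Ino80KD, and 5 of them were downstream. The C-type genes Pcdhgc3, Pcdhgc4 and Pcdhgc5 had 11, 9 and 1 loops. Pcdhgc4 had 1 and 2 in Control, 0 and 0 in Brg1KD, and 3 and 3 in Ino80KD, so that its 3 groups did not overlap.

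Beta promoters reached downstream only from the second part of their array. The 10 beta baits from Pcdhb1 to Pcdhb11 had 0 listings in the first 100 kb downstream, and the 11 from Pcdhb12 to Pcdhb22 had 1 to 12 each. Pcdhb22, the last beta gene, led with 12 and Pcdhb19 followed with 7. Beta downstream loops numbered 7 and 8 in Control, 3 and 14 in Brg1KD, and 5 and 3 in Ino80KD. Both Ino80KD libraries lay below both Control libraries, at 0.546 of the Control mean per 1000 intrachromosomal loops, while 1 Brg1KD library lay below and the other above both Controls. The exact two-sided permutation test gave p = 0.333 for Ino80KD against Control, the smallest that 2 against 2 libraries allow. Over all loops, Pcdhb22 had 32, with 7 and 7 in Control, 7 and 4 in Brg1KD, and 5 and 2 in Ino80KD. Pcdhb21 had 20 (2 and 3, 1 and 6, 6 and 2), Pcdhb20 had 18 (2 and 3, 1 and 5, 3 and 4) and Pcdhb18 and Pcdhb19 had 13 each, with no separation of the groups in Pcdhb21, Pcdhb20 or Pcdhb18.

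**Figure D3:**
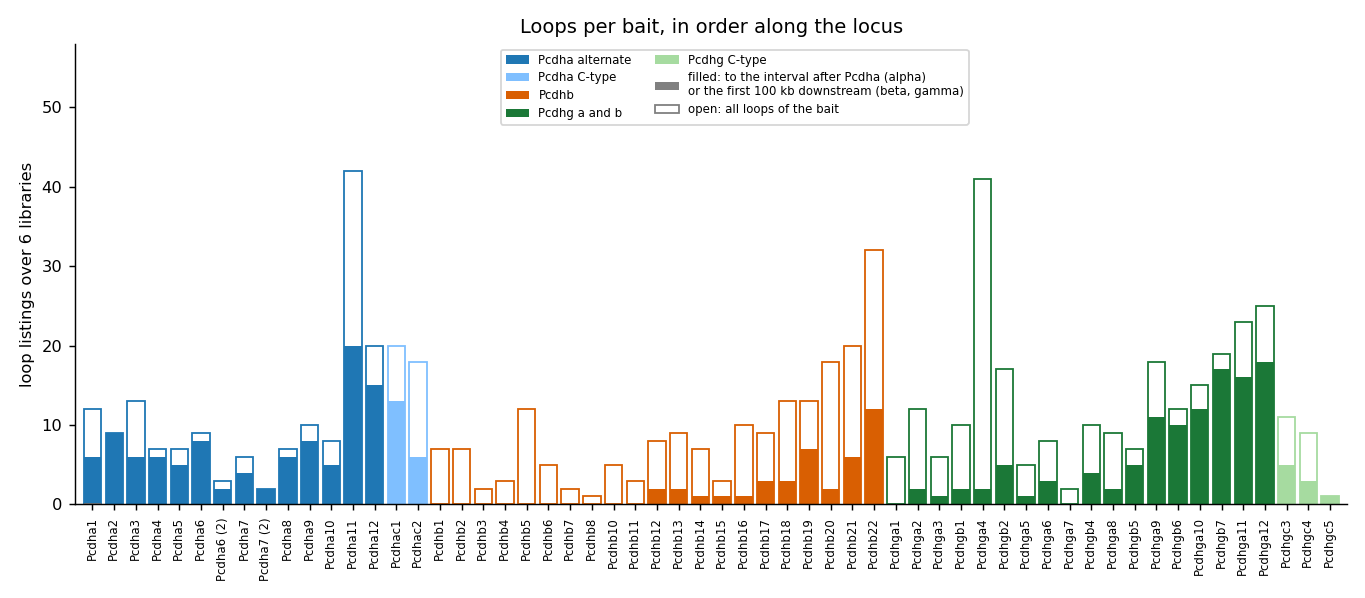
Open bars give all loop listings of each bait over 6 libraries, in order along the locus, and filled bars those to the interval between Pcdha and Pcdhb1 for alpha baits or to the first 100 kb downstream for beta and gamma baits. The filled part rises to 20 at Pcdha11 and 18 at Pcdhga12, each near the end of its array of alternate genes, and is 0 for Pcdhb1 to Pcdhb11.

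**Figure D4:**
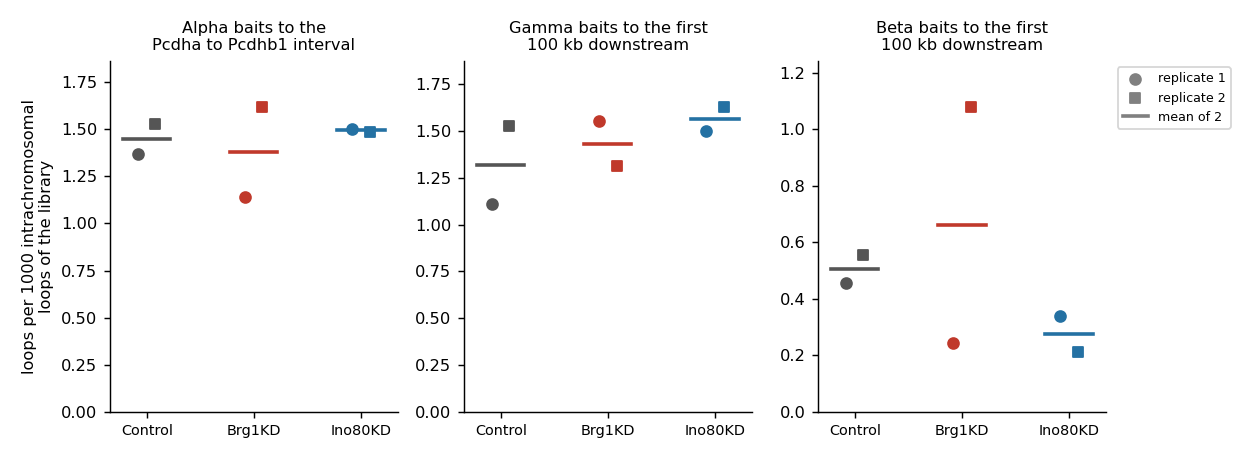
Points give the loops of alpha, gamma and beta baits to their distant interval per 1000 intrachromosomal loops of each library, with bars for the mean of 2 libraries per group. Control, Brg1KD and Ino80KD overlap for alpha baits, and both Ino80KD libraries lie below both Control libraries for beta baits.

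The beta genes also met the gamma genes. Of 98 listings between 2 member baits, 68, or 69.4%, joined a beta and a gamma bait. The Pcdhga4 bait was the main partner: 10 beta genes looped to it in 26 listings. Control had 8 and 2 such listings, Brg1KD 3 and 3, and Ino80KD 7 and 3, and the replicates of Control differed more than the groups. Pcdhb20, Pcdhb21 and Pcdhb22 each looped to it in 4 libraries, over 181.8, 172.4 and 168.2 kb. Pcdhga4 had 41 loops, which were 10 and 4 in Control, 8 and 6 in Brg1KD, and 9 and 4 in Ino80KD, and replicate 1 was the higher in each group.

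The loops listed most steadily were those to the distant intervals. Of the 304 distinct loops, 40 were listed in 4 or more libraries and 11 in all 6, while 187 were listed in 1. Those in all 6 made up 3.62% of member loops, against 3.11% of all distinct loops of the series. Those in 1 made up 61.5%, against 68.0%. The 11 were Pcdha2, Pcdha11, Pcdha12 and Pcdhac1 to the bin from 37200001, Pcdhga12 to all 3 downstream bins, and Pcdhga11 and Pcdhgb7 each to the bins from 37860001 and 37880001. Of the 40, 14 were Pcdha loops into the interval, 12 from alternate and 2 from C-type genes, and 17 led downstream. By score, ranked within each library's own list, the loop from Pcdhga12 to the bin from 37840001 lay between percentiles 92.6 and 95.9 in the 6 libraries. The loop from Pcdha12 to the bin from 37200001 ranged from percentile 81.1 to 93.4, and that from Pcdha11 to the same bin from 79.8 to 92.9. The Pcdha2 loop, listed as often, ranked lower, from percentile 13.8 to 61.4. Across all member loops the median percentile was 38.5 to 58.1 per library, with both Ino80KD libraries (48.4 and 58.1) above both Control libraries (40.4 and 47.0), and Brg1KD at 42.9 and 38.5.

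Loops listed again in another library are those with both ends within 5 kb. By that rule 46.3 to 72.3% of a library's member loops were found in the other library of the same group, and 46.9 to 71.1% in a library of another group. A loop missing from a list is one that did not reach the score minimum there, so it is not shown to be absent.

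Relative to the intrachromosomal loops of a library, and at the deposited score minimum, loops at the locus did not separate the groups. Member loops numbered 98 and 100 in Control, 67 and 95 in Brg1KD, and 107 and 83 in Ino80KD. In raw number both Brg1KD libraries thus lay below both Controls, at 0.818 of the Control mean. The exact permutation test gave p = 0.333 for this, the smallest that 2 against 2 libraries allow. Per 1000 intrachromosomal loops these were 6.4 (95% Wilson interval 5.25 to 7.79) and 6.95 (5.72 to 8.44) in Control, 5.47 (4.31 to 6.94) and 7.33 (6.0 to 8.95) in Brg1KD, and 7.29 (6.04 to 8.80) and 5.88 (4.75 to 7.28) in Ino80KD. The intervals cover counting error only. By this rate the 2 libraries of each depletion lay on either side of both Controls. Brg1KD was at 0.959 and Ino80KD at 0.987 of Control, with exact permutation p = 1 for both (2 against 2 libraries), and Ino80KD was at 1.03 of Brg1KD with p = 1. Each of these ratios crossed 1 when single libraries were left out. For Brg1KD against Control it was 1.00036 without Control replicate 2 and 1.10 without Brg1KD replicate 1, and for Ino80KD against Control 1.03 without Control replicate 2 and 1.09 without Ino80KD replicate 2. For Ino80KD against Brg1KD it was 0.899 without Brg1KD replicate 1 and 0.919 without Ino80KD replicate 1. In batch 1, with 1 library per group, Brg1KD was at 0.855 and Ino80KD at 1.14 of Control. Batch 3 held the depletions alone, with Ino80KD at 0.802 of Brg1KD.

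The share of loops with both ends inside the locus was lower in all 4 depletion libraries than in both Control libraries. It was 74.5% and 69.0% in Control, 65.7% and 66.3% in Brg1KD, and 67.3% and 63.9% in Ino80KD. The mean difference from Control was -5.75 percentage points for Brg1KD and -6.17 for Ino80KD (exact permutation p = 0.333, the smallest that 2 against 2 libraries allow, adjusted p = 0.75 over 9 tests, for each). Without Control replicate 1 these were -3.01 and -3.43 points, and within batch 1, with 1 library per group, they were -8.82 and -7.20. With the locus extended by 100 kb on either side, which takes in the downstream contacts, the difference was -0.26 points for Brg1KD and -4.20 for Ino80KD, the libraries being at 99.0% and 99.0% in Control, 98.5% and 98.9% in Brg1KD, and 94.4% and 95.2% in Ino80KD. The median span of member loops was 200.0 and 198.0 kb in Control, 177.3 and 192.3 kb in Brg1KD, and 182.2 and 172.0 kb in Ino80KD, again below both Controls in each depletion (p = 0.333 by the exact permutation test, adjusted p = 0.75). All other baits had 249.2 and 281.6 kb in Control, 220.3 and 260.1 kb in Brg1KD, and 242.3 and 246.0 kb in Ino80KD, so that Ino80KD was below both Controls there too.

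Loops into the distant intervals gave no such separation per 1000 intrachromosomal loops in alpha or gamma genes. Alpha baits had 1.37 and 1.53 in Control, 1.14 and 1.62 in Brg1KD, and 1.5 and 1.49 in Ino80KD (ratios to Control 0.953 and 1.03, exact permutation p = 1 for both). Gamma baits had 1.11 and 1.53 in Control, 1.55 and 1.31 in Brg1KD, and 1.5 and 1.63 in Ino80KD (ratios 1.08 and 1.19, p = 0.667 by the exact permutation test for both). The alpha ratio turned for Brg1KD to 1.008 without Control replicate 2 and 1.12 without Brg1KD replicate 1, and for Ino80KD to 0.977 without Control replicate 1. The gamma ratio for Brg1KD turned to 0.936 without Control replicate 1 and 0.994 without Brg1KD replicate 1.

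More member baits had fewer loops in Brg1KD than in Control than had more. Of the 56 member baits with a loop in Control or Brg1KD, 13 had fewer loops in both Brg1KD libraries than in either Control library and 0 had more, where 8.95% and 4.64% of all baits with a loop did so. The 13 were Pcdha10, Pcdha12, Pcdhac1, Pcdhb3, Pcdhb6, Pcdhb10, Pcdhb11, Pcdhga1, Pcdhgb2, Pcdhga5, Pcdhgb6, Pcdhga11 and Pcdhgc4. Brg1KD also had the fewest intrachromosomal loops in all, 12254 and 12962 against 15322 and 14394 in Control, and member baits had more loops each than other baits; the part of the latter was not tested. Per 1000 intrachromosomal loops 13 member baits were lower and 6 higher, where 8.82% and 13.3% of all baits were. Among loops with a score of 7 or more, 3 of 32 member baits were lower and 0 higher, against 7.42% and 3.06% of all baits. Of the 58 member baits with a loop in Control or Ino80KD, 8 were lower and 4 higher, against 7.06% and 6.12% of all baits with a loop. The 8 were Pcdha2, Pcdha4, Pcdhac2, Pcdhb3, Pcdhb6, Pcdhb11, Pcdhb22 and Pcdhga1, and the 4 were Pcdha8, Pcdhb7, Pcdhb19 and Pcdhgc4. Each of these genes other than Pcdhb22 had at most 5 loops in any library of the comparison, and with a score of 7 or more the Ino80KD counts were 1 and 3 of 36, against 5.12% and 5.07% of all baits. Per 1000 loops they were 10 lower and 8 higher, against 8.08% and 11.7%. When single libraries were left out, the counts ran from 18 to 24 lower and 4 to 12 higher in Brg1KD and from 12 to 19 lower and 7 to 15 higher in Ino80KD, a looser rule since 1 library then stands for a group. Under that rule 16.1 to 30.6% of all baits were lower and 9.3 to 21.3% higher in Brg1KD, and 13.2 to 26.8% lower and 11.9 to 23.7% higher in Ino80KD.

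Individual loops listed in both libraries of a group and in neither of another were few. Of the 304 distinct member loops, 9 were listed in both Control libraries and neither Brg1KD library, or 2.96%, against 2.7% of all distinct loops. There were 4 of the opposite kind, or 1.32% against 1.48%. For Ino80KD, 10 were listed in both Control libraries alone, or 3.29% against 2.19%, and 9 in both Ino80KD libraries alone, or 2.96% against 1.98%. Between the depletions, 15 were found in the 2 Ino80KD lists but in none of Brg1KD, or 4.93% against 2.82%, and 6 the other way, or 1.97% against 1.63%. Of the 9 in Ino80KD and not Control, 4 joined Pcdhga8, Pcdhgb5, Pcdhga10 and Pcdhgc4 to the same downstream bin, from 37840001. That bin had 7 and 5 listings in Control, 7 and 6 in Brg1KD, and 9 and 12 in Ino80KD. The farthest of the 3 bins, from 37880001, had 11 and 12, 7 and 14, and 7 and 7 in the same order, so that Ino80KD was above both Control libraries in the nearest bin and below both in the farthest. These genes and bins were singled out after their values were seen.

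The authors' deposited tables compare signal over regions rather than listings, and a value above 0 is taken here as higher after depletion. This direction is not given in the headers. Outside the members, loops listed in both Brg1KD libraries and in neither Control library had a deposited value above 0 in 83.7% of 724 cases, and those of Control alone in 16.6% of 1309; for Ino80KD the shares were 86.3% of 967 and 15.5% of 1054. Regions of a bait overlap and share contacts, so entries are not independent of each other. An entry is said below to lead to a stretch where its region has its middle there. Many regions reach beyond that stretch. The region from 37140001 to 37280000, of 140 kb, also holds the Pcdhac2 and Pcdhb1 baits. Regions placed downstream, such as 37805290 to 37907536, can also hold the baits of Pcdhgc3, Pcdhgc4 and Pcdhgc5.

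In the authors' deposited table for Brg1KD, 0 of 214 entries at 55 member baits had an unadjusted p under 0.05, where 1.2% of all 33243 entries did (0.827% lower and 0.373% higher). In that for Ino80KD, 0 of 230 entries at 58 baits did, where 1.29% of 34774 did (0.382% lower and 0.912% higher). At an adjusted p under 0.05 both deposited tables had 0 entries in all. The median error of a member entry in the authors' deposited tables was 0.36 for both, and entries as far from 0 as -1.20 and 1.03 did not pass this threshold.

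By the median, the members lay slightly below 0 in both. In the authors' deposited table for Brg1KD the median log2 fold change was -0.05 over member entries and -0.01 over all, with 57.0% of member entries and 51.3% of all below 0. The other baits of chromosome 18 lay lower than the members there, with a median of -0.08 and 63.7% of entries below 0 in the authors' deposited table. For Ino80KD the authors' deposited table had -0.08 against 0.00, with 62.6% and 49.6% below 0, and the other baits of chromosome 18 had -0.01 and 52.0%. Over the member entries with a mean signal above the median of the authors' deposited table, the Ino80KD median turned to 0.057 and the Brg1KD median was -0.085.

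In the Ino80KD comparison all 15 entries of Pcdhac1 and Pcdhac2 in the authors' deposited table were below 0, with a median of -0.23 and a range of -0.55 to -0.06. For Pcdhb in the authors' deposited table, 56 of 73 entries and 20 of 21 baits were below 0, with a median of -0.14, and Pcdhb7 was the exception. Beta entries leading to the first 100 kb downstream were below 0 in 14 of 15 cases of the authors' deposited table (median -0.21). This is the direction of the listings above, which come from the same libraries, so it is not separate support. Alternate Pcdha entries of the authors' deposited table whose region had its middle in the interval before Pcdhb1 had a median of -0.21. Of these, 25 of 36 were below 0. Pcdha11 and Pcdha12, with the most loops into that interval, lay above 0 instead, with 2 of 7 and 2 of 8 of all their entries in the authors' deposited table below 0 and medians of 0.09 and 0.06. Gamma entries lay on either side by where the middle of their region was. Of the gamma C-type entries, 9 of 11 in the authors' deposited table were above 0, with a median of 0.27, and so were 25 of 35 a and b entries leading downstream, with a median of 0.11. Of the a and b entries leading to beta genes, 16 of 24 in the authors' deposited table were below 0 (median -0.20), as were 11 of 16 leading to the interval between Pcdhb22 and Pcdhga1 (median -0.10). In none of these families did a single entry pass p under 0.05, no test of the difference between families was made, and the 2 libraries per group and their batches are shared by all entries.

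For Brg1KD, all 12 entries of the authors' deposited table at Pcdhac1 and Pcdhac2 were again below 0, with a median of -0.18 and a range of -0.26 to -0.10. The 5 gamma C-type entries of the authors' deposited table were also below 0, with a median of -0.15. The other families lay near 0 in the authors' deposited table, at -0.03 for alternate Pcdha, 0.01 for Pcdhb and -0.07 for gamma a and b genes. Both comparisons use the same Control libraries.

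The smallest p-values were at gamma and alpha C-type baits. In the authors' deposited table for Brg1KD the lowest was Pcdhga5 to a region from 37505004 to 37619645, which holds the last beta genes (log2 fold change -0.65 ± 0.34 (SE), unadjusted p = 0.0548). In the authors' deposited table Pcdhga12 to the region from 37500001 to 37600000 followed (-1.20 ± 0.63, p = 0.0563), and a second, overlapping region of Pcdhga5 had p = 0.0844. Among entries above 0, Pcdhga4 to the region from 37815819 to 37936501 downstream had 0.36 ± 0.24 and p = 0.132 in the authors' deposited table. A long region of Pcdhga3, from 37969030 to 38120000, had 0.95 ± 0.68 in the authors' deposited table and p = 0.162, and a second downstream region of Pcdhga4 had p = 0.192. The authors' deposited table for Ino80KD had its lowest p-value at Pcdhga6 to beta genes from 37401595 to 37446535 (-1.15 ± 0.60, p = 0.0536). Next in the authors' deposited table came Pcdhac2 to the region from 37060001 to 37140000 around Pcdhac1 (-0.41 ± 0.22, p = 0.0580) and Pcdhb8 to other beta genes (-0.62 ± 0.36, p = 0.0911). Above 0 the authors' deposited table had its smallest p-values for Pcdhgb6 to the region from 38160001 to 38260000, which takes in Pcdh1 (1.03 ± 0.56, p = 0.0663), Pcdhgb7 downstream (0.36 ± 0.24, p = 0.135) and Pcdhgb4 downstream (0.51 ± 0.34, p = 0.135). The smallest adjusted p-values of the authors' deposited tables were 0.999861 for Brg1KD and 0.999829 for Ino80KD.

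**Figure D5:**
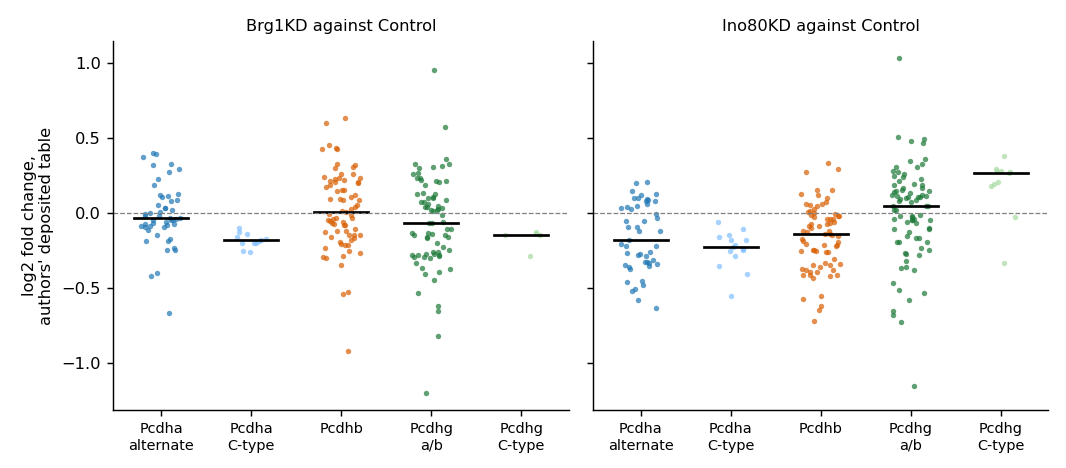
Points are the entries of the authors' deposited tables at member baits, by family, with the deposited log2 fold change on the y axis, values above 0 taken as higher after depletion, and a line at each median. Alpha C-type entries lie below 0 in both comparisons, and gamma C-type entries lie mostly above 0 in Ino80KD (median 0.27) and below it in Brg1KD (median -0.15).

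Beside other genes the clustered protocadherins had more loops per bait, shorter loops and more loops that joined 2 baits. Over the 6 libraries they had 1.58 ± 0.249 loops per bait (SD, n = 6 libraries), against 0.729 ± 0.0593 for all other baits and 1.014 ± 0.170 for the 12 baits of non-clustered protocadherins, which are cell surface proteins encoded singly. Their difference was in the same direction in 6 of 6 libraries (exact two-sided sign permutation p = 0.03125, adjusted p = 0.03125 over 9 tests, the smallest that 6 libraries allow). Keratin genes, another densely baited set with 55 baits, had more, 2.24 ± 0.314 (the same exact p). Loops that also had a member bait were left out of the other sets in all of these measures. The share of loops whose other end was another bait was 18.5 ± 4.49% for the clustered protocadherins, 3.84 ± 0.965% for all other baits, 2.45 ± 1.60% for keratin genes and 0% for non-clustered protocadherins. That 0% therefore leaves out the loops between clustered protocadherin baits and Pcdh1 that are given below. The median span was 187 ± 11.5 kb, against 250 ± 20.3, 564 ± 17.4 and 236 ± 41.1 kb in that order. All of these differences had the same exact p. The libraries of a group share conditions and all 6 share a cell line, so n counts libraries. Every library compares the same baits, so these p-values cover only whether a difference recurs across libraries. They cannot say how unusual the member baits are among sets of baits. Member baits had a median of 52 other baits within 500 kb, against 49 for keratin baits, 15 for all other baits and 1 for non-clustered protocadherins, and the part of this density in the results was not tested. With a score minimum of 7 the difference from all other baits in the share of loops to another bait was 13.2 points (exact sign permutation p = 0.03125). With a minimum of 10 it was 1.67 points (exact sign permutation p = 0.844). The difference was thus kept among loops with a score of 7 or more and not seen among those of 10 or more.

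Few loops left the region. Of the 550 listings, 16, or 2.91%, ended outside the locus and its first 100 kb downstream, and 5 reached a bait of a protein-coding neighbour within 1 Mb. Of these 5, 3 joined Pcdhga10, Pcdhga11 or Pcdhgb6 to Pcdh1, a non-clustered protocadherin 0.344 Mb away, 2 of them in Ino80KD replicate 1 and 1 in Control replicate 1. Pcdh1 itself had 38 loops, with 6 and 3 in Control, 7 and 7 in Brg1KD, and 8 and 7 in Ino80KD. In the authors' deposited table for Ino80KD, 8 of its 10 entries had an unadjusted p under 0.05, all higher. Of all entries there, 0.912% were higher at this threshold, and 0 had an adjusted p under 0.05. The 10 entries were of 2 baits, and entries of a bait are not independent of each other. Of 15 genes known to act on the clustered protocadherins, 10 had a bait, among them Ctcf and the cohesin gene Smc3. Over the 9 of them with entries, 2 of 13 entries in the authors' deposited table for Brg1KD had an unadjusted p under 0.05. Both were lower and both were of the 1 bait of Zfp143, a zinc finger protein of promoter loops. Of all entries of that authors' deposited table, 0.827% were lower at this threshold. Over the 7 with entries, the authors' deposited table for Ino80KD had 0. The promoter sequences of the locus are not used here.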

How the data were processed

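Per the labels' protocols, MNase-cut chromatin of doubly crosslinked E14 cells was ligated and enriched for promoters. For each library the authors deposited its called loops, each with a score on their own scale, used here only within a list; which caller made them is not stated in the sources used. The submitters' processing notes name mm10 and bedtools. For each depletion the authors also deposited a comparison with Control, which holds, per the file headers, the mean normalized signal, the log2 fold change and its error, a statistic (score), and raw and adjusted p-values. No counts per library were in the files used here, so no count model was fitted and the design's stated fallback was used.

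Genes came from RefSeq (GRCm38.p6, the build of mm10) and all 58 matched by symbol. Loops of 1 bait on chromosome 2 (98661117 to 98662976) were left out of all denominators. Other ends were placed by their middle. Differences between groups were tested by exact permutation over libraries (two-sided), adjusted by Benjamini-Hochberg, and rates per library were given 95% Wilson intervals for counting error. Functions were tested on simulated data. Python 3.11.15, pandas 2.3.3, numpy 2.4.6 and scipy 1.17.1 were used. Named baits are the 15 with the most listings, named loops those in the most libraries, and named entries of the authors' deposited tables the 3 smallest p-values per direction; others named were chosen after their values were seen. The members and all gene lists were chosen with earlier results of these data known. Nothing in the labels says that replicates were separate cultures, so their spread may be technical. Replicate numbers were not taken to pair libraries, since batch 2 held Control alone. Alternatives are listed at the end.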

Additional observations from a re-analysis of the deposited data

Results flagged for a closer look

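Loops between chromosomes were outside the main measurement. In Brg1KD replicate 1, 9 of 3809 interchromosomal loops were at a clustered protocadherin bait (2.36 per 1000, 95% Wilson interval 1.24 to 4.48), above the 3 of 2720 (1.10, 0.375 to 3.24) and 0 of 2942 of the Control libraries. The 9 were at Pcdha5, Pcdha6, Pcdha8, Pcdhb10, Pcdhb11, Pcdhb14, Pcdhb16, Pcdhgb1 and Pcdhgc4, and this library listed the most interchromosomal loops of the 6. Brg1KD replicate 2 had 0 of 2600, and Ino80KD had 2 of 2812 and 0 of 2405, so all of them came from batch 1.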

How the results depend on the processing

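Ratios of member loops to Control turned with a score minimum of 7, to 1.06 for Brg1KD and 1.22 for Ino80KD. Both depletion libraries then lay above both Controls (exact permutation p = 0.333 for each, the smallest that 2 against 2 libraries allow). With a minimum of 10, Ino80KD was at 0.792 of Control and both its libraries lay below both Controls (exact permutation p = 0.333). At that minimum Ino80KD against Brg1KD turned to 0.841. The cause of these turns was not tested. Within batch 1 Ino80KD was at 1.14 of Control, and within batch 3 at 0.802 of Brg1KD. Leaving out each library in turn gave 0.820 to 1.10 (Brg1KD against Control), 0.882 to 1.09 (Ino80KD against Control) and 0.899 to 1.20 (Ino80KD against Brg1KD). The replicate block, with differences within the replicate number, gave 0.9496, 0.982 and 1.03 and changed no call; its smallest exact p is 0.5. The share inside the locus differed from Control by -8.50 to -3.01 points for Brg1KD and -8.92 to -3.43 for Ino80KD when a library was left out, and between Ino80KD and Brg1KD by -2.14 to 1.30 points when a library was left out and by 1.62 in batch 1. Alpha loops to the interval were at 0.788 to 1.12, 0.977 to 1.09 and 0.922 to 1.31 without single libraries, in the same order of comparisons. They turned with a minimum of 7 to 1.11 for Brg1KD against Control and 0.949 for Ino80KD against Brg1KD, and in batch 3 to 0.918. Gamma downstream loops were at 0.936 to 1.29 for Brg1KD against Control without single libraries, and Ino80KD against Brg1KD turned to 0.967 in batch 1. Loops shared within a group averaged 59.0%, against 38.5% with identical ends and 68.6% within 10 kb. The median of the authors' deposited log2 fold changes was -0.085 for Brg1KD and 0.057 for Ino80KD over entries of higher signal, and -0.13 for Ino80KD as plain means per bait. Against all other baits, loops per bait differed by 0.806 to 0.919 and the share to another bait by 13.3 to 15.5 points without single libraries. There 5 libraries cannot go below p = 0.0625 in the exact test. The share to another bait differed by 13.2 points with a minimum of 7 and by 1.67 points with a minimum of 10. Baits not overlapping with Control were 3 lower in Brg1KD and 1 lower in Ino80KD with a minimum of 7, and per 1000 loops 6 were higher in Brg1KD and 10 lower and 8 higher in Ino80KD; without single libraries they were 18 to 24 lower and 4 to 12 higher in Brg1KD, and 12 to 19 lower and 7 to 15 higher in Ino80KD; the share of all baits at each setting stands beside these counts above. Of 192 alternatives run, 122 were labelled the same as the main result. For comparisons between groups this meant the same direction, and for medians and counts a close or equal value. Gene bodies without extension, and gene starts within 2 kb alone, selected the same 58 baits as the main setting. Alternatives with these 2 settings could therefore only be labelled the same. The p-value of the alternative itself counted only in the comparison with all other baits. Alternatives for the intervals, the comparison with other baits and single baits were chosen after seeing the data.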
